A study of Mus musculus with 4 samples.

Results

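Of 443447 bins of 5 kb on the mouse autosomes other than chromosome 12, 276 were high in H3K4me3 and in H3K9me3 from both of the cell sources studied. They were chosen by read totals from chromatin immunoprecipitation with sequencing (ChIP-seq). A member had MEF H3K4me3 of 5-fold or more, H3K9me3 of 3-fold or more in MEF and in secondary MEF, and MEF H3K27me3 under 3-fold, where fold is the number of reads in a bin divided by the library's mean over all bins with a read in any library. The members made up 0.0622% of all these bins and 2.33% of the 11866 bins that met both the H3K4me3 and the H3K27me3 condition. Since the totals chose the members, their 5 kb levels are given below as a description. The placement of reads inside a bin was not used by the rule, and it was read here in the 10 windows of 500 bp that each bin holds.

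H3K4me3, trimethylation of lysine 4 on histone H3, sits on nucleosomes around the start sites of active and poised genes. H3K9me3 is laid down by methyltransferases of the SUV39 and SETDB1 families, binds HP1 proteins and is known from heterochromatin, repeats and silenced genes. H3K27me3 is the mark of Polycomb repressive complex 2 and often shares promoters with H3K4me3, whereas H3K4me3 and H3K9me3 are generally regarded as marks of opposite states. A 5 kb bin with both can hold them on the same stretch, as a promoter within a wider domain, or side by side at a border.

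Fibroblasts of the mouse embryo (MEF), cells of its connective tissue kept in culture, gave a library each for H3K4me3, H3K27me3 and H3K9me3, and were grown in DMEM with fetal bovine serum. Secondary MEF gave an H3K9me3 library alone. They were taken at 13.5 days post coitum from chimeric embryos, which had been made by injecting induced pluripotent stem cells into BDF2 blastocysts. The injected cells carried Oct4, Klf4 and Sox2 under doxycycline control and an Oct4-selectable cassette, and had been derived with Wnt3a-conditioned medium. Their fibroblasts were selected with puromycin at 2 µg/ml for 48 hours and kept in cosmic calf serum. The labels do not state the strain of the MEF, how many embryos were pooled for either source, or whether doxycycline was given to the secondary cells. The antibody lot was the same for both H3K9me3 libraries, but cell source, serum and flow cell changed together between them and cannot be told apart. The labelled cell type could not be checked against marker genes, because gene annotation on mouse build mm8 was not used here, and regions are named by position on that build.

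With 1 library in each group there were no replicates to check a difference against, and all comparisons are between libraries. The H3K4me3 library had 12244567 usable reads, the H3K27me3 library 9782554, the MEF H3K9me3 library 8912337 and the secondary MEF H3K9me3 library 7985901. A 5 kb bin held a mean of 24.7, 19.8, 18.0 and 16.1 reads in that order, and a 500 bp window 2.47, 1.98, 1.80 and 1.61. Intervals are at the 95% level and cover counting error only (Poisson for a fold, exact Clopper-Pearson for a ratio or a share). Sequencing reads carried no molecular identifiers, so copies made by PCR count as separate reads.

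The members had strong H3K4me3 and moderate H3K9me3. H3K4me3 ranged from 5.01-fold to 92.4-fold with a median of 18.2-fold. MEF H3K9me3 ranged from 3.05-fold to 7.72-fold around a median of 3.28-fold, and secondary MEF H3K9me3 from 3.04-fold to 13-fold around 4.21-fold. Most members therefore lay close to the MEF H3K9me3 threshold. The interval of the MEF H3K9me3 fold included 3 in 235 members, that of the secondary library in 106, and both intervals were above 3 in 35. By these values, which the rule used, the secondary library had the higher fold in 238 of the 276 members (86.2%). The share was 81.3% in the H3K4me3 bins with both H3K9me3 libraries under 3-fold. It was 43.4% in H3K4me3 bins high in both H3K9me3 libraries and in H3K27me3. In bins high in both H3K9me3 libraries with H3K4me3 under 2-fold it was 64.2%. H3K4me3 bins with 1 library at 3-fold had 97.6%, but there the library at 3-fold is the higher one by definition. H3K9me3 exceeded H3K4me3 in 10 members in the secondary library and in none in both libraries.

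H3K27me3 had a median of 2.23-fold in the members, with a range from 0.860-fold to 2.98-fold. It reached 2-fold in 192 of them, so most had 2-fold or more in all 4 libraries. Among the 9593 H3K4me3 bins with H3K27me3 under 3-fold and both H3K9me3 libraries under 3-fold, called H3K9me3-low bins below, its median was 1.37-fold. No input library was used here, so how far these levels exceed those of unselected chromatin was not tested. Where the rule cut, the nearest members stood at 5.01-fold H3K4me3 and the nearest bins outside at 4.85-fold to 4.89-fold. For MEF H3K9me3 these values were 3.05-fold and 2.998-fold, for secondary MEF H3K9me3 3.04-fold and 2.97-fold, and for H3K27me3 2.98-fold and 3.04-fold. The MEF H3K9me3 threshold removed the most bins, with 1950 bins failing it alone, against 47 for the secondary library.

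**Figure D1:**
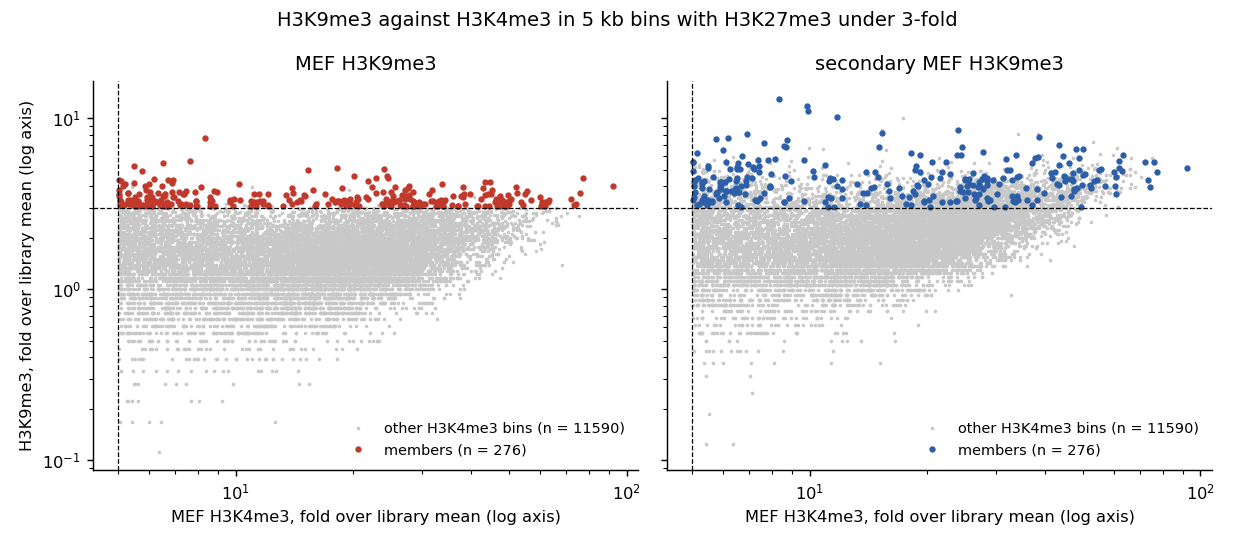
H3K9me3 fold (vertical log axis) against MEF H3K4me3 fold (horizontal log axis) in 5 kb bins with H3K27me3 under 3-fold, for the MEF library (left) and the secondary MEF library (right); coloured points are the 276 members, grey points the other H3K4me3 bins, and dashed lines the thresholds of 5-fold and 3-fold. Most members sit just above the MEF threshold, at a median of 3.28-fold, and stand higher in the secondary library, at a median of 4.21-fold.

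Members were found at both ends of the H3K4me3 range. Of the 3129 H3K4me3 bins between 5-fold and 10-fold, 102 were members (3.26%). The share was 1.06% between 10-fold and 20-fold (48 of 4511) and 2.00% between 20-fold and 40-fold (76 of 3801). It reached 11.8% at 40-fold or more, where 50 of 425 bins were members. The median MEF H3K9me3 fold was nearly level across these classes, from 3.28 to 3.33, and that of the secondary library ran from 3.997 to 4.55. Across the 276 members the log2 folds of H3K4me3 and MEF H3K9me3 had a Pearson correlation of -0.100 and a Spearman correlation of -0.0789, and those of both H3K9me3 libraries 0.445 and 0.328. The thresholds truncate these ranges, and the members share their libraries, so the correlations are descriptions.

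Most members stood alone. The 276 bins formed 263 runs, of which 251 were a single bin, 11 covered 10 kb and 1 covered 15 kb. The longest run lay on chromosome 9 from 58100001 to 58115000. Its 3 bins had H3K4me3 of 6.63-fold, 37.7-fold and 44.5-fold, MEF H3K9me3 of 3.05-fold, 3.50-fold and 3.05-fold, and secondary MEF H3K9me3 of 5.08-fold, 5.82-fold and 6.01-fold. H3K4me3 thus rose several-fold along this run while H3K9me3 changed little. Of the 10 kb runs, those with the highest MEF H3K9me3 were on chromosome 11 from 94755001, chromosome 7 from 142280001, chromosome 10 from 83860001 and chromosome 4 from 43420001. Their mean MEF H3K9me3 was between 3.64-fold and 3.75-fold. Chromosomes 7, 5, 2 and 11 held the most members, with 27, 26, 24 and 24. As a share of H3K4me3 bins with H3K27me3 under 3-fold, the members were most frequent on chromosome 18 (14 of 350, 4%) and least on chromosome 1 (6 of 713, 0.842%). The windows of 1 Mb with the most members began at 76000001 on chromosome 15, with 7, and at 30000001 on chromosome 2, with 6.

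H3K9me3 extended beyond the member bins more often than beyond H3K9me3-low bins, but at 3-fold no more often than beyond other bins high in both H3K9me3 libraries. A neighbouring bin had both H3K9me3 libraries at 2-fold or more beside 199 of the 276 members (72.1%), and beside 16.6% of the H3K9me3-low bins. At 3-fold or more these shares were 21.0% and 1.89%. The 2-fold share was 50.1% for H3K4me3 bins with 1 H3K9me3 library at 3-fold, 66.4% for H3K4me3 bins high in both H3K9me3 libraries and in H3K27me3, and 65.3% for bins high in both H3K9me3 libraries with H3K4me3 under 2-fold. In the last 2 kinds the 3-fold share was 31.1% and 22.8%, above that of the members. In 49 members (17.8%) a neighbour with 2-fold H3K9me3 in both libraries had H3K4me3 under 2-fold, against 4.74% of the H3K9me3-low bins, 12.6% of the bins with 1 H3K9me3 library at 3-fold and 32.1% of the H3K4me3 bins high in both H3K9me3 libraries and in H3K27me3. H3K4me3 was extended as well, with a neighbour at 5-fold or more in 62.0% of the members and 39.2% of the H3K9me3-low bins. The rule did not use neighbouring bins.

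Inside a bin the layout can be read window by window, and 4 members show how far it varied. They were picked after their windows were seen, from the members named by rank, because each has enough reads for its shape to be seen. The bin on chromosome 14 from 26255001 to 26260000 carried the marks on the same 500 bp. From its left to its right edge the 10 windows held 38, 88, 117, 107, 10, 1, 4, 1, 3 and 0 H3K4me3 reads. MEF H3K9me3 gave 25, 19, 4, 8, 1, 2, 2, 1, 1 and 1 reads, and secondary MEF H3K9me3 31, 23, 10, 7, 0, 0, 1, 1, 0 and 0. Both H3K9me3 libraries were highest in the first windows, 2 windows to the left of the H3K4me3 maximum but inside the H3K4me3 peak, and almost no reads of any mark lay in its right part. Over the whole bin H3K4me3 was 14.9-fold, H3K27me3 1.01-fold, MEF H3K9me3 3.55-fold and secondary MEF H3K9me3 4.52-fold, and both neighbouring bins had H3K4me3 under 1-fold.

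The bin on chromosome 5 from 109795001 to 109800000 held the marks partly side by side. Its windows held 4, 9, 10, 54, 110, 79, 145, 57, 121 and 5 H3K4me3 reads, against 10, 13, 19, 22, 14, 1, 6, 2, 3 and 1 of MEF H3K9me3 and 10, 11, 26, 49, 19, 5, 6, 2, 8 and 2 of secondary MEF H3K9me3. H3K9me3 filled the left part, H3K4me3 the right part, and they met in the fourth and in the fifth window, from 109796501 to 109797500. The H3K9me3 maximum of both libraries fell in the fourth window, where H3K4me3 was already 21.8-fold. To the left the next bin had H3K4me3 of 1.37-fold, and H3K9me3 stood there at 3.94-fold (MEF) and 6.94-fold (secondary MEF), and to the right H3K9me3 was 0.555-fold and 0.806-fold. This member is thus a place where an H3K9me3 stretch ended inside an H3K4me3 peak. Only 1 of its windows had H3K4me3 under 2-fold, and by the density ratio used below it was neither on nor beside.

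In the bin on chromosome 14 from 13140001 to 13145000, which had the highest H3K9me3 of all members, H3K9me3 covered the whole bin. H3K4me3 was 8.33-fold (interval 7.23 to 9.54), MEF H3K9me3 7.72-fold (6.49 to 9.11) and secondary MEF H3K9me3 13-fold (11.3 to 14.9). The first window held 138 of its 206 H3K4me3 reads but 7 of 139 MEF and 13 of 210 secondary MEF H3K9me3 reads. The other windows held between 3 and 25 MEF H3K9me3 reads and between 10 and 38 secondary MEF reads, with 1 to 18 H3K4me3 reads. Here the strongest H3K9me3 lay off the H3K4me3 maximum. The H3K4me3 peak went on into the bin to the left, which had H3K4me3 of 13.3-fold and 1.33-fold MEF and 1.80-fold secondary MEF H3K9me3.

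On chromosome 13 from 120605001 to 120610000 a sharp H3K4me3 peak stood at the left edge of an H3K9me3 stretch. Its highest window and the windows on either side of it held, from left to right, 113, 208 and 77 H3K4me3 reads, 19, 8 and 17 MEF H3K9me3 reads and 23, 9 and 16 secondary MEF reads. In the 3 windows to the left of the peak each H3K9me3 library had at most 4 reads a window, while in the 4 windows to the right they had 7 to 14 and 8 to 17. H3K9me3 was lower in the window of the H3K4me3 maximum than in the windows on both sides of it, in both libraries. H3K27me3 followed the same pattern with 12, 3 and 10 reads. This bin also held 104 H3K4me3 reads that matched 2 locations of the genome and that were left out of the levels.

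The 10 members with the highest H3K9me3, ranked by the smaller fold of both libraries, often had their highest H3K9me3 window away from the H3K4me3 maximum. This was also frequent over all 276 members. There it lay 2 or more windows away in 60.1% in MEF and 53.3% in secondary MEF, each library counted alone. In 7 of the 10 the highest H3K9me3 window lay 2 or more windows from that of H3K4me3 in both libraries, in 2 it adjoined it in both and in 1 it was the same window in both. Secondary MEF reads were tied with the H3K4me3 peak window in 2 of those 7, on chromosome 3 from 39080001 and chromosome 7 from 110085001, so the count is 5 where every tied window has to lie that far away. On chromosome 19 from 25475001, with MEF H3K9me3 of 5.61-fold and secondary MEF H3K9me3 of 7.13-fold, the fifth window held the most H3K9me3 reads, 22 and 28, while H3K4me3 was highest in the first. H3K4me3 there had 6 to 38 reads a window. Its highest window held 0 MEF and 4 secondary MEF H3K9me3 reads. The fifth window still held 13 H3K4me3 reads, at 5.25-fold, so the marks shared that window. On chromosome 7 from 4595001, H3K9me3 was highest in the fifth window, at 19 and 23 reads, and H3K4me3 in the last 3, at 180, 164 and 158. By the density ratio defined below, H3K9me3 of 3 of the 10 was on the H3K4me3 windows in both libraries. These were the chromosome 13 bin, at 7.33 in MEF and 6.40 in secondary MEF, chromosome 8 from 128555001, at 2.33 and 3.91, and chromosome 7 from 110085001, at 3.68 and 5.87. These 10 were picked for their H3K9me3 totals, not for its place in the bin.

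The 5 members with the highest H3K4me3 had H3K4me3 along the whole bin. They lay on chromosome 5 from 143225001, chromosome 7 from 140705001, 100800001 and 44715001, and chromosome 17 from 28820001. H3K4me3 ran from 73.4-fold to 92.4-fold, MEF H3K9me3 from 3.11-fold to 4.50-fold, secondary MEF H3K9me3 from 3.97-fold to 5.52-fold and H3K27me3 from 2.43-fold to 2.93-fold. At least 9 windows of each were at 5-fold H3K4me3 or more. In the highest, on chromosome 5, H3K4me3 varied from 72 to 558 reads between windows, while MEF H3K9me3 had 1 to 12 and secondary MEF H3K9me3 5 to 17. H3K9me3 in these bins had no window free of H3K4me3 to lie in.

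**Figure D2:**
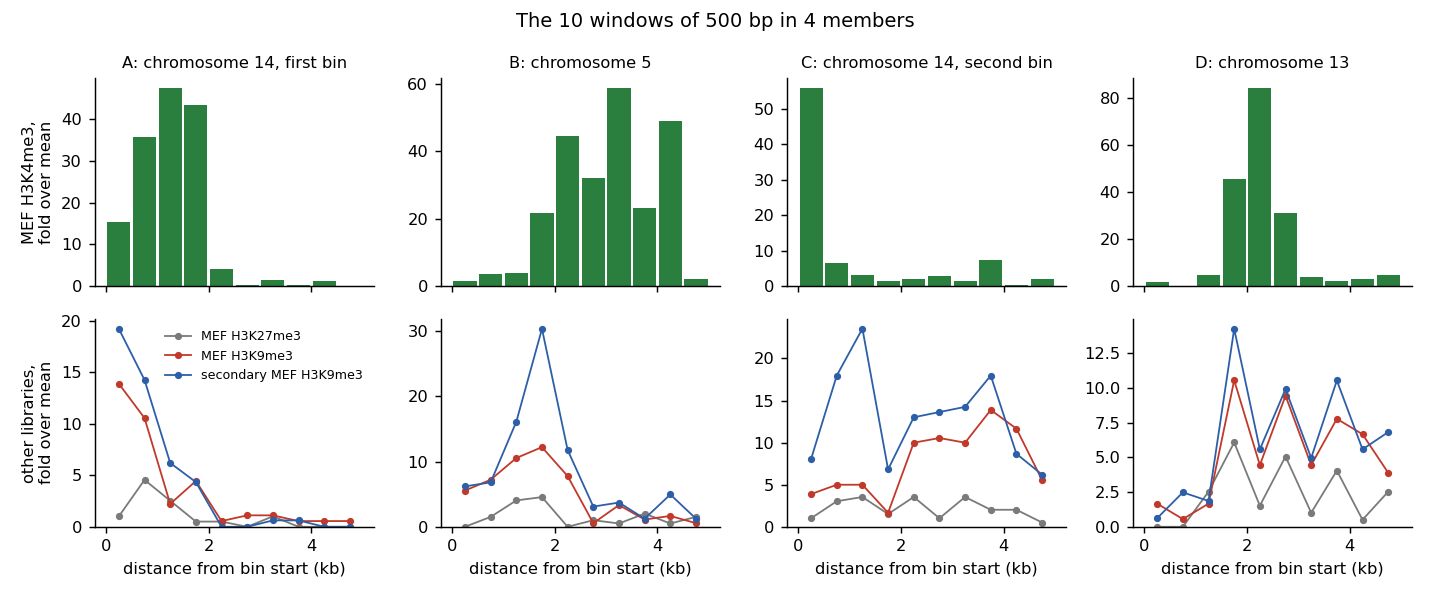
Fold over the library mean in the 10 windows of 500 bp of 4 members, by distance from the bin start; bars in the upper row are MEF H3K4me3 and lines in the lower row MEF H3K27me3, MEF H3K9me3 and secondary MEF H3K9me3. In A (chromosome 14 from 26255001) H3K9me3 lies inside the H3K4me3 peak, in B (chromosome 5 from 109795001) it lies on its left side, in C (chromosome 14 from 13140001) it covers the bin, and in D (chromosome 13 from 120605001) it runs from the peak to the right edge.

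For all members the same question was put as a density ratio. Windows with H3K4me3 of 5-fold or more were set against windows with H3K4me3 under 2-fold, and a mark was called on the H3K4me3 windows where the interval of its density ratio was above 1 and beside them where it was below 1. Only 171 members had windows of both kinds. The other 105 had no window under 2-fold, and in 35 members all 10 windows were at 5-fold or more, so H3K9me3 in those 35 could only lie on H3K4me3.

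Where the layout could be called, H3K9me3 was on the H3K4me3 windows far more often than beside them, but the share of on calls moved with how the windows were compared. MEF H3K9me3 was on them in 58 members (21.0%, interval 16.4% to 26.3%) and beside them in 3 (1.09%, 0.225% to 3.14%), with 110 undecided. Secondary MEF H3K9me3 was on them in 83 (30.1%, 24.7% to 35.9%) and beside them in none, with 88 undecided. A call of 0 among the 171 members with windows of both kinds allows a share of such calls of up to 2.13%, and it says nothing of the undecided members or of the 105 without a low window. Both libraries were on in 48 members. A stricter interval lowered the on shares to 7.61% and 13.4%, and adding the windows of both neighbouring bins, chosen after seeing the data, raised them to 64.1% and 81.5%. In all 11866 H3K4me3 bins with H3K27me3 under 3-fold, MEF H3K9me3 was on in 30.9% and beside in 0.362%, and secondary MEF H3K9me3 on in 51.0% and beside in 0.152%. H3K27me3, which the rule held low, was on the H3K4me3 windows in 48 members (17.4%, against 34.7% of those bins) and beside them in 2 (0.725%, against 0.523% of those bins). Windows of both kinds were present in 62.0% of the members but in 94.9% of the H3K9me3-low bins. Of the bins that had both, MEF H3K9me3 was on in 33.9% of the members and 34.8% of the H3K9me3-low bins, secondary MEF H3K9me3 in 48.5% and 56.0%, and H3K27me3 in 28.1% and 38.8%. The on call was thus about as frequent or less so in the members. Their higher H3K9me3 counts make a call easier to reach, but having fewer low windows per bin makes it harder. There were 397 low windows in the 171 members and 40388 in 9107 H3K9me3-low bins.

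The 3 members called beside in the MEF library were on chromosome 1 from 43105001 (ratio 0.375, interval 0.185 to 0.822), chromosome 11 from 102250001 (0.436, 0.224 to 0.900) and chromosome 15 from 76280001 (0.5, 0.260 to 0.962). They are named after their values were seen. The secondary library was undecided in all 3, with ratios of 1.02, 1.53 and 2.00, so no member had H3K9me3 beside H3K4me3 in both libraries. Among members with at least 2 windows of each kind, the lowest ratios in both libraries together were on chromosome 9 from 71565001, at 0.653 in MEF and 0.567 in secondary MEF, with intervals that included 1. The other 4 of the 5 lowest, on chromosome 17 from 26290001, chromosome 15 from 101080001, chromosome 7 from 99275001 and chromosome 5 from 113885001, were also undecided in both libraries.

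The highest ratios were those of bins with few H3K9me3 reads in their windows of low H3K4me3. In the bin on chromosome 14 from 26255001 described above the ratio was 10.0 in MEF (4.55 to 26.0) and 44.4 in secondary MEF (11.8 to 374). On chromosome 8 from 74505001 it was 8.32 (3.35 to 26.7) and 48.0, the latter resting on 1 read in the 4 windows with low H3K4me3. On chromosome 5 from 94165001 neither H3K9me3 library had a read in the 2 windows with low H3K4me3, and the lower bounds of the ratios were 3.94 and 4.28. Members on chromosome 6 from 4695001 and chromosome 4 from 151320001 completed the 5 highest, with MEF ratios of 9.43 and 8.40.

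Summed over the members, H3K9me3 was denser on the H3K4me3 windows, but it was far from confined to them. The pooled density ratio was 1.55 (1.48 to 1.63) in MEF and 2.11 (2.01 to 2.23) in secondary MEF, and within the 171 members with both kinds of window 1.62 and 2.22. H3K27me3 had a ratio of 1.70 (1.60 to 1.81). In H3K9me3-low bins the pooled ratios were higher, at 2.04, 2.75 and 2.04 for MEF H3K9me3, secondary MEF H3K9me3 and H3K27me3. A ratio above 1 was found in 131 (76.6%) and 156 (91.2%) of the 171 members for MEF and secondary MEF H3K9me3, and in 87.5% and 94.7% of the H3K9me3-low bins with both kinds of window.

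Windows ranked by H3K4me3 showed where the members differed from H3K9me3-low bins. In windows with H3K4me3 under 0.5-fold, the members had MEF H3K9me3 of 2.01-fold (1.82 to 2.21) and secondary MEF H3K9me3 of 1.76-fold (1.58 to 1.96), while H3K9me3-low bins had 0.863-fold and 0.901-fold. Between 2-fold and 40-fold H3K4me3 the MEF level over all members pooled was almost flat, from 3.42-fold to 3.49-fold, while H3K4me3 itself rose from a mean of 3.31-fold to 28.5-fold. In the secondary library it lay between 4.15-fold and 4.71-fold over the same range. Both rose in windows of 40-fold H3K4me3 or more, to 4.44-fold for MEF and 6.32-fold for the secondary library. In H3K9me3-low bins, also pooled, the levels climbed over the whole range, to 2.94-fold and 4.49-fold in the highest class. The flat level did not hold within members of like H3K4me3. Between 2-fold and 40-fold windows, members of 5-fold to 10-fold rose from 3.59-fold to 4.44-fold in MEF and from 4.65-fold to 5.69-fold in secondary MEF. In members of 20-fold or more the secondary level rose from 3.22-fold to 4.30-fold. Their MEF level went from 3.16-fold down to 2.71-fold and up to 3.27-fold. The higher level of the members follows in part from the rule, which asks for more reads in the bin, but the rule does not say in which windows they lie. H3K27me3 in all members pooled went from 1.13-fold in the lowest H3K4me3 class of windows to 2.99-fold in the highest.

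**Figure D3:**
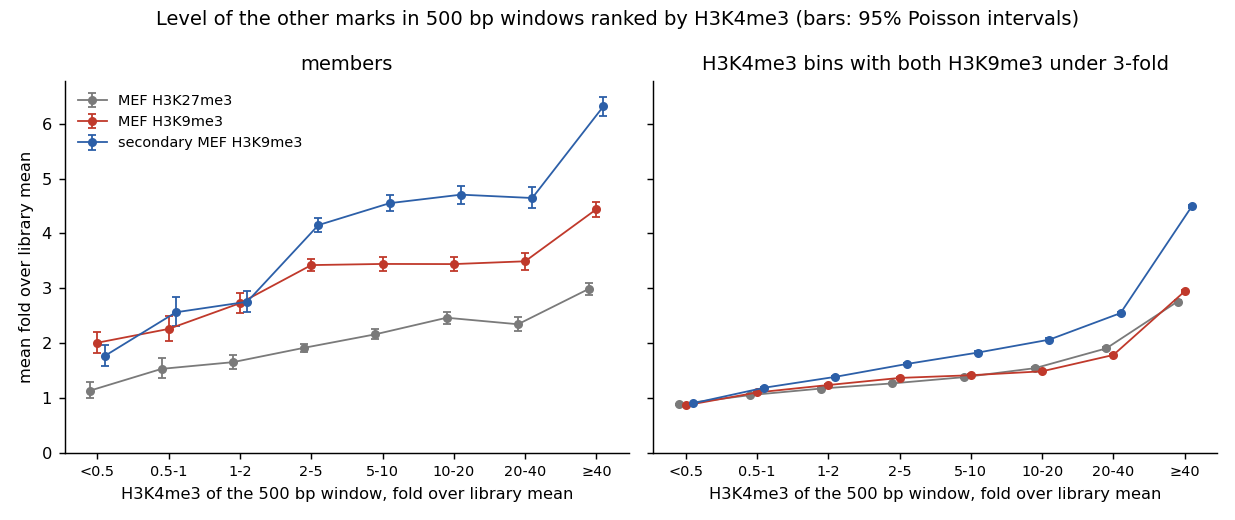
Mean fold of MEF H3K27me3, MEF H3K9me3 and secondary MEF H3K9me3 (vertical axis) in 500 bp windows grouped by their H3K4me3 fold (horizontal axis), for the 276 members (left) and the 9593 H3K9me3-low bins (right), with 95% Poisson intervals. Over all members pooled, MEF H3K9me3 is at 2.01-fold in the windows with the least H3K4me3, level near 3.4-fold between 2-fold and 40-fold H3K4me3, and at 4.44-fold in the highest class.

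The profile around the H3K4me3 peak window, the window with the most H3K4me3 reads of each member, gave the same picture. Within 250 bp of its centre the members had 72.2-fold H3K4me3, and 3750 to 5250 bp away 6.14-fold. MEF H3K9me3 fell from 4.76-fold to 2.29-fold over that distance, secondary MEF H3K9me3 from 6.55-fold to 2.76-fold, and H3K27me3 from 3.23-fold to 1.86-fold. Both H3K9me3 profiles of the members were highest in the 250 bp next to the H3K4me3 maximum and fell with each step of distance away from it. In H3K9me3-low bins the levels at the centre were 3.13-fold, 4.75-fold and 2.95-fold, and at the outer distance 1.28-fold, 1.38-fold and 1.20-fold. The rise of H3K9me3 from the outer distance to the centre was 2.47 in members and 1.84 in H3K9me3-low bins for MEF, and 3.80 and 3.37 for secondary MEF, in fold units. As a ratio of centre to outer level it was smaller in the members, at 2.08 against 2.43 for MEF and 2.38 against 3.44 for secondary MEF. The rise at the centre was thus present in both kinds of bin, and the members stood on a higher level on both sides of it. Members with H3K4me3 of 5-fold to 10-fold had a smaller rise, from 2.46-fold to 4.16-fold in MEF, than those of 20-fold or more, which went from 2.09-fold to 5.46-fold.

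**Figure D4:**
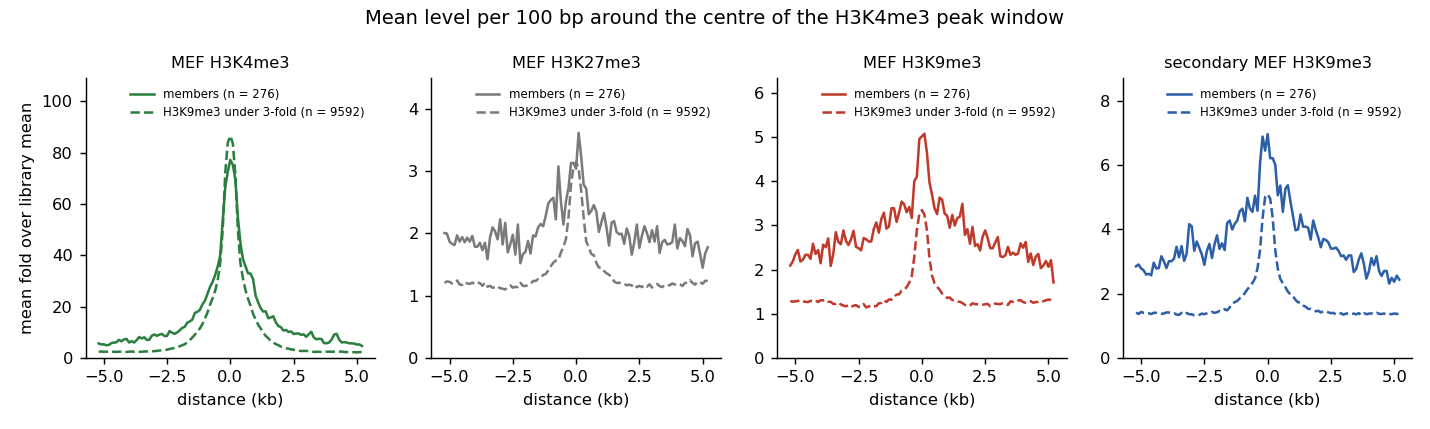
Mean fold per 100 bp (vertical axis) at distances up to 5 kb from the centre of the H3K4me3 peak window (horizontal axis, kb) for the 4 libraries; solid lines are the 276 members and dashed lines the 9592 H3K9me3-low bins with a full profile. The H3K9me3 lines of the members stay above those of the H3K9me3-low bins at all distances, at 2.29-fold against 1.28-fold in MEF at 3750 to 5250 bp, and all marks rise at the centre.

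The single highest window of H3K9me3 was often not that of H3K4me3. In MEF the H3K9me3 peak window was the H3K4me3 peak window in 62 members, adjoined it in 48 and lay 2 or more windows away in 166. In secondary MEF these counts were 72, 57 and 147, and for H3K27me3 68, 72 and 136. In H3K9me3-low bins the same window was highest in 44.9% for MEF and 55.1% for secondary MEF, against 22.5% and 26.1% of the members. These shares varied with H3K4me3. The secondary peak window was at or next to that of H3K4me3 in 33.3% of members of 5-fold to 10-fold and 74% of those of 40-fold or more. H3K9me3-low bins of these levels had 58.7% and 76.2%. For MEF the shares were 26.5% and 56% in the members, and 42.9% and 82.2% in H3K9me3-low bins. The H3K9me3 peak window of a member carried H3K4me3 of 5-fold or more in 204 cases in MEF (73.9%) and 226 in secondary MEF (81.9%), against 75.7% and 86.6% of the H3K9me3-low bins. H3K4me3 was under 2-fold there in 13 and 4 members (4.71% and 1.45%), against 14.2% and 7.10% of the H3K9me3-low bins, which have more such windows. Of all windows with a read, 62.1% were at 5-fold H3K4me3 or more in the members, but 40.8% in the H3K9me3-low bins. The peak windows of the members thus stood closer to the share of all windows. A peak window of MEF H3K9me3 held a median of 6.66-fold, which is few reads, so its place is known with little precision.

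**Figure D5:**
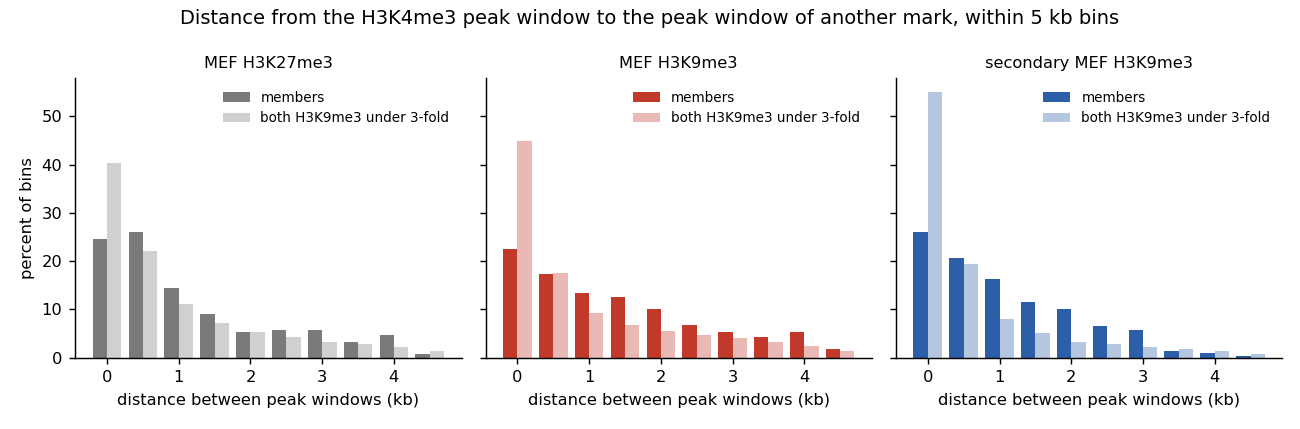
Percent of bins (vertical axis) by the distance between the H3K4me3 peak window and the peak window of MEF H3K27me3, MEF H3K9me3 or secondary MEF H3K9me3 (horizontal axis, kb); full bars are the 276 members and pale bars the 9593 H3K9me3-low bins. The same window is highest in 22.5% of the members and 44.9% of the H3K9me3-low bins for MEF H3K9me3.

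Both H3K9me3 libraries placed their highest window within 1 window of each other in 126 members. In 60 of these (47.6%) that place was at or next to the H3K4me3 peak window in both libraries, and in 56 (44.4%) it was 2 or more windows away in both. Of the 5904 H3K9me3-low bins with such a shared place, 83.0% had it at or next to the H3K4me3 peak. In 99 of the 126 members (78.6%) H3K4me3 was 5-fold or more in both peak windows, and in 1 (0.794%) it was under 2-fold in both. In the H3K9me3-low bins with a shared place these shares were 90.5% and 2.998%. The shared maximum of H3K9me3 thus lay on windows of high H3K4me3 in a smaller share of the members than of the H3K9me3-low bins, and in the members it was nearly as often 2 or more windows from the H3K4me3 maximum as at or next to it. The median rank correlation over the windows of a member was 0.475 between both H3K9me3 libraries, and 0.488 in H3K9me3-low bins. With H3K4me3 it was 0.342 for MEF H3K9me3, 0.452 for secondary MEF H3K9me3 and 0.397 for H3K27me3 in the members. In H3K9me3-low bins these values were higher, at 0.461, 0.568 and 0.467.

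Windows strong in H3K9me3 gave the most direct view of the same 500 bp. Of the 2759 windows of the members with a read, 299 had H3K9me3 of 5-fold or more in both libraries. Of these, 231 (77.3%) had H3K4me3 of 5-fold or more, 56 had 2-fold to 5-fold and 12 (4.01%) had less than 2-fold. Among all windows of the members the shares with high and low H3K4me3 were 62.1% and 14.4%. A window at 5-fold or more in H3K4me3 and in both H3K9me3 libraries was present in 156 of the 276 members (56.5%), and one with 5-fold H3K9me3 in both libraries and H3K4me3 under 2-fold in 9 (3.26%). In H3K9me3-low bins these shares were 9.04% and 0.104%, but the 3-fold thresholds themselves leave fewer H3K9me3 reads there. They were 25.9% and 0.501% in H3K4me3 bins with 1 H3K9me3 library at 3-fold. In H3K4me3 bins high in both H3K9me3 libraries and in H3K27me3 they were 80.4% and 7.93%, above the members. Any window of 5-fold H3K9me3 in both libraries was present in 181 members (65.6%) and in 9.24% of the H3K9me3-low bins. The other 95 members could enter neither count. Of such windows in H3K9me3-low bins 97.8% had H3K4me3 of 5-fold or more and 1.10% had less than 2-fold, and in bins with 1 H3K9me3 library at 3-fold 92.6% and 1.64%. In H3K4me3 bins high in both H3K9me3 libraries and in H3K27me3 these shares were 82.8% and 4.70%. Strong H3K9me3 windows thus lay on high H3K4me3 in a smaller share in the members than in these kinds of bin. Their share on H3K4me3 under 2-fold was near that of the bins also high in H3K27me3, but the bases differed. Windows of such low H3K4me3 made up 14.4% of all windows in the members and 31.8% in those bins. In members with H3K4me3 of 5-fold to 10-fold, 10 of 106 strong H3K9me3 windows had H3K4me3 under 2-fold, and in members of 20-fold or more 2 of 143. By these counts 156 members held H3K4me3 and the H3K9me3 of both libraries at 5-fold or more on the same 500 bp, and 9 held strong H3K9me3 in a window with low H3K4me3. A window of 500 bp holds several nucleosomes and a library many cells, so reads in the same window do not show the marks on the same nucleosome, allele or cell.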

How the data were processed

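The deposited files held signed genome positions of reads, in no unit other than base pairs (a value of another kind than a level), with the minus strand as a negative number. Alignment by the authors was to mm8 with Bowtie, per the file headers, at up to 2 reported and allowed locations (-k 2, -m 2), up to 2 mismatches (-n 2) in a seed of 36 bases (-l 36) and a quality limit of 70 (-e 70). The Bowtie version is not given in the sources used here. Per the labels, sonicated chromatin averaged 500 bp, passed through 18 cycles of PCR, and amplified fragments of 150 to 350 bp were cut from a gel.

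Reads with 1 location were moved 75 bp to the 3' side, with a read length of 36 bases and positions taken as the leftmost base, and counted in 5 kb bins and 500 bp windows (Python 3.11.15, numpy 2.4.6, scipy 1.17.1, matplotlib 3.10.9). Reads with 2 locations were left out. Windows without a read in any library were left out. A peak window had the most reads of a library, and a tie went to the window nearest to the centre of its reads in that bin. Chromosome 12 and the sex chromosomes were left out by the rule for the members. With 1 library in each group no comparison was tested, and intervals were computed at the 95% level. The script for the layout calls was checked on simulated windows of known density ratio.

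Named bins were the 10 with the highest smaller H3K9me3 fold, the 5 with the highest H3K4me3, the 5 longest runs (ties by MEF H3K9me3), and, with 2 or more windows of each kind, the 5 highest smaller and the 5 lowest larger density ratios of both H3K9me3 libraries. The members, window classes and lists were chosen with earlier results of these data known. Alternatives covered reads per position, shift, bin borders, thresholds, window size, window classes, reads with 2 locations, the interval and depth. Gene names and sequences were not used here, since the reference tables are on another build.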

Additional observations from a re-analysis of the deposited data

Results flagged for a closer look

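Reads that matched 2 locations of the genome were left out of all levels above, and those of the H3K4me3 library stood above the library's mean in the members. The members were chosen for high H3K4me3 from reads with 1 location. Counted at each location, 1315 of them fell in the 276 members, which is 4.16 times the library's mean per bin (95% interval 3.94 to 4.39). This was below the 8.47 of the H3K4me3 bins with both H3K9me3 libraries under 3-fold, the 6.93 of those with 1 library at 3-fold and the 23.1 of those high in both H3K9me3 libraries and in H3K27me3. It was also below the members' own mean of 22.5-fold from reads with 1 location. In the same bins those of MEF H3K27me3, MEF H3K9me3 and secondary MEF H3K9me3 stood at 0.586, 0.676 and 0.803 times their library's mean. A single member, on chromosome 5 from 4760001 to 4765000, held 308 of the 1315, and without it the value was 3.20. In 163 members no such H3K4me3 read was found. The chromosome 5 member had H3K4me3 of 43.4-fold, MEF H3K9me3 of 4.22-fold and secondary MEF H3K9me3 of 6.94-fold from reads with 1 location, with both neighbouring bins under 1.5-fold in all 4 libraries. Which of the 2 locations these reads came from was not tested.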

How the results depend on the processing

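Both pooled density ratios stayed above 1 under every alternative run, and a change of direction was checked for these ratios alone. As reported, the on and peak shares were higher in the secondary library, at 30.1% against 21.0% and 46.7% against 39.9%. This order changed with the 4-fold threshold and in the 35 members with both intervals above 3-fold. There the MEF shares were higher, with on shares of 31.4% in MEF and 28.6% in secondary MEF in the 35 members. The number of members was 2700 with an H3K9me3 threshold of 2-fold, 25 with one of 4-fold and 84 with H3K27me3 under 2-fold, and within 1.5 times of 276 under the 5 others, among them one read per position. With the 4-fold threshold, MEF H3K9me3 was on the H3K4me3 windows in 28% and beside them in 4% of the members, secondary MEF H3K9me3 on them in 24%, the pooled ratios were 1.46 and 1.57, and the peak windows were at or next to that of H3K4me3 in 48% and 36%. With the 2-fold threshold the secondary on share was 41.7%, the pooled ratios 1.67 and 2.28, and the peak shares 52.2% and 63.1%. With H3K27me3 under 2-fold the on shares were 29.8% and 38.1%, MEF H3K9me3 was beside in 0%, and the ratios were 1.85 and 2.30. With H3K4me3-low windows under 1-fold the on shares were 13.8% and 19.9% and the ratios 1.77 and 2.42. With a stricter interval for the calls the on shares were 7.61% and 13.4% and the MEF beside share 0%. Windows of 1000 bp gave a secondary on share of 22.5%, a MEF ratio of 1.47 and peak shares of 65.9% and 69.2%. Windows of 250 bp gave a secondary ratio of 1.97 and peak shares of 30.8% in both libraries. Thinning to equal depth gave ratios of 1.42 and 1.79, bin borders moved by 2.5 kb gave 1.46 and 1.79 with a secondary beside share of 1.85%, windows with a read of MEF H3K27me3 gave a MEF ratio of 1.47, and one read per position a secondary ratio of 2.00. Chosen after seeing the data, adding the windows of both neighbouring bins raised the on shares to 64.1% and 81.5%, with ratios of 1.79 and 2.43 and a MEF beside share of 0%. The upper against the lower 5 windows of H3K4me3 gave on shares of 28.3% and 39.9%, ratios of 1.33 and 1.498 and a secondary beside share of 2.54%. The 35 members with both intervals above 3-fold had a MEF on share of 31.4%, a secondary ratio of 1.64 and peak shares of 48.6% and 37.1%. The cause of these shifts was not tested. No paired analysis was possible because each group held 1 library and the labels give no replicate numbers. The layout is limited by depth, with about 1.8 and 1.6 H3K9me3 reads per 500 bp at a level of 1-fold, and by the 105 members without a window of low H3K4me3, which could not be called at any depth.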
